A study of Arabidopsis thaliana with 12 samples.

Results

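The MATE transporter cluster of Arabidopsis thaliana is a tandem run of 7 genes on chromosome 2, from AT2G04040 to AT2G04100. Its members were chosen by locus identifier: AT2G04040 (DTX1), AT2G04050, AT2G04066, AT2G04070, AT2G04080, AT2G04090 and AT2G04100. They are 7 of the 33323 nuclear genes counted. The cluster was picked because AT2G04070 and AT2G04050 stood out among S2P libraries when induced seedlings were set against mock ones, so its values in that comparison are a description and carry no test here.

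MATE proteins (multidrug and toxic compound extrusion) are membrane carriers that move small organic molecules out of the cytoplasm in exchange for protons or sodium ions. Plants have large families of them, which carry alkaloids, flavonoids, organic acids and hormones. DTX1, for which the Arabidopsis family is named, is an efflux carrier of the plasma membrane that exports alkaloids and other toxic compounds. Tandem genes arise by local duplication, so neighbouring copies tend to be alike in sequence and can differ in how much each is transcribed.

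Chromatin immunoprecipitation with sequencing measured RNA polymerase II in Columbia seedlings at 10 days after sowing, with an antibody against the polymerase phosphorylated at serine 2 (S2P) or serine 5 (S5P) of its C-terminal domain. S2P marks mostly polymerase elongating through a gene, and S5P mostly polymerase near the start. All 12 libraries, mock ones included, came from plants with the tfIIs-1 insertion allele (SALK_056755) in the elongation factor TFIIS (AT2G38560) and an estradiol-inducible GFP fusion of that factor. There were 4 groups of 3 libraries, a mock and an induced one for each antibody. Induced plants had been given 2 mM β-estradiol for 24 h, and mock plants ethanol. By the labels the induced protein was GFP-TFIIS where S2P was measured and GFP-TFIISmut, with a mutated TFIIS, where S5P was. The series title names the mutated form alone, so which form the S2P induced plants made is uncertain. A difference between antibodies therefore cannot be told apart from a difference between induced proteins, nor an effect of estradiol from that of the protein. No wild type and no input chromatin were used here.

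Depth differed widely, from 115868 reads in nuclear genes (S5P induced replicate 2) to 2537034 (S2P mock replicate 3). S2P mock replicates 1 and 2 and S2P induced replicate 3 were also shallow, with 159951, 192044 and 210421 reads. Levels are given in CPM (counts of a gene over all reads in nuclear genes, times 1000000). In the 4 shallow libraries 3 reads equal 14.3 to 25.9 CPM, and in the other 8 they equal 1.18 to 8.27 CPM. TFIIS, the induced gene, had 18.8, 67.7 and 57.9 CPM in S2P mock and 93.9, 125 and 61.8 CPM in S2P induced libraries. For S5P it had 58.9, 46.9 and 47.7 CPM in mock and 156, 43.2 and 179 CPM in induced libraries. The shallow induced library of each antibody thus lay within or below the mock levels. The 43.2 CPM of S5P induced replicate 2 came from 5 reads, with an exact Poisson 95% interval of 14.0 to 101 CPM that spans the mock levels. The fitted differences between induced and mock plants are also given without them; means and sums include them.

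Within this cluster, 3 genes carried most of the polymerase and most of the difference between mock and induced plants: DTX1, AT2G04050 and AT2G04070. AT2G04080, next to AT2G04070, had a smaller difference. At the far end, AT2G04090 and AT2G04100 overlapped between mock and induced libraries with both antibodies, and AT2G04066 was too thinly read to be tested. Whether induced seedlings had more polymerase per cell or more cells that transcribe the genes cannot be told apart in bulk chromatin.

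AT2G04070 had 25.01, 15.6 and 19.7 CPM in the S2P mock libraries and 176, 161 and 166 CPM in the S2P induced libraries. All 3 induced libraries lay above all 3 mock libraries, and they lay close together although their depths ran from 210421 to 1650892 reads. For S5P, AT2G04070 had 22.3, 33.1 and 12.5 CPM in mock libraries and 213, 86.3 and 195 CPM in induced libraries. The groups again did not overlap, and the lowest induced value came from the shallowest library, where it rests on 10 reads (exact Poisson 95% interval 41.4 to 159 CPM). In order, the mean levels were 20.1 ± 4.71 CPM in S2P mock, 22.6 ± 10.3 in S5P mock, 165 ± 68.8 in S5P induced and 168 ± 7.83 in S2P induced (SD, n = 3 each). Both mock groups lay within each other's spread, as did both induced groups. The S2P and S5P log2 fold changes fitted by edgeR were 3.27 (SE 0.44) and 3.15 (SE 0.53).

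AT2G04050 had 18.8, 57.3 and 34.7 CPM in the S2P mock libraries and 204, 271 and 95.05 CPM in the S2P induced ones. For S5P it had 23.9, 66.2 and 52.4 CPM in mock and 340, 104 and 347 CPM in induced libraries. Neither antibody's groups overlapped, and the shallow induced library of each was the lowest of its group. Fitted log2 fold changes came to 2.55 with S2P (SE 0.51) and 2.67 with S5P (SE 0.62). In order, the means were 36.9 ± 19.4 CPM in S2P mock, 47.5 ± 21.6 in S5P mock, 190 ± 89.0 in S2P induced and 263 ± 139 in S5P induced (SD, n = 3 each), and the antibodies did not differ beyond their spread within either condition.

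DTX1 had 50.0, 36.5 and 52.0 CPM in the S2P mock libraries and 168, 229 and 47.5 CPM in the S2P induced ones. The S2P groups overlapped through induced replicate 3, where DTX1 had 10 reads. For S5P it had 52.5, 49.6 and 64.2 CPM in mock and 244, 77.7 and 318 CPM in induced libraries, with no overlap. On the log2 scale DTX1 differed by 1.84 with S2P (SE 0.50) and by 2.12 with S5P (SE 0.55). The means were 46.2 ± 8.47 CPM in S2P mock, 55.4 ± 7.71 in S5P mock, 148 ± 92.4 in S2P induced and 213 ± 123 in S5P induced (SD, n = 3 each). DTX1 and AT2G04050 were lowest, among induced libraries of either antibody, in the shallow one. In S2P induced replicate 3, 56.1% of aligned reads had been set aside by the counter for low mapping quality, against 20.3% and 21.0% in the other S2P induced libraries. In S5P induced replicate 2 that share was 23.9%, against 25.1% and 19.1%. The part of depth and mapping quality in these values was not tested.

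AT2G04080 had 12.5, 5.21 and 9.85 CPM in the S2P mock libraries and 23.6, 26.8 and 28.5 CPM in the S2P induced ones, which did not overlap. Its S2P mock values in replicates 1 and 2 rest on 2 reads and 1 read. For S5P it had 20.7, 19.3 and 11.7 CPM in mock and 35.2, 17.3 and 30.6 CPM in induced libraries, and the groups overlapped through the shallowest library. Its log2 fold change was 1.56 with S2P (SE 0.39) and 1.05 with S5P (SE 0.35), and the latter was 1.12 without S5P induced replicate 2.

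The remaining copies were read at low levels. AT2G04100 had 0, 26.0 and 16.6 CPM in S2P mock, 4.24, 15.6 and 28.5 in S2P induced, 28.6, 19.3 and 14.1 in S5P mock and 19.4, 0 and 16.4 CPM in S5P induced libraries. Its groups overlapped with both antibodies, with log2 fold changes of -0.35 (SE 0.61) and -0.15 (SE 0.42), both of which changed sign under at least 1 other setting. AT2G04090 ranged from 0 to 11.8 CPM in S2P mock, 7.78 to 19.0 in S2P induced, 8.61 to 14.3 in S5P mock and 5.22 to 17.0 CPM in S5P induced libraries. AT2G04066 held 9 reads over the 3 S2P mock libraries and 15 over the induced ones, and 5 and 21 reads in the same order for S5P. It did not pass the filter on low counts when all libraries of a comparison were used. Its S5P induced libraries, at 5.46, 8.63 and 8.20 CPM, lay above the mock ones at 4.77, 0 and 1.57 CPM, but 1 read gave the 8.63 CPM.

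**Figure D1:**
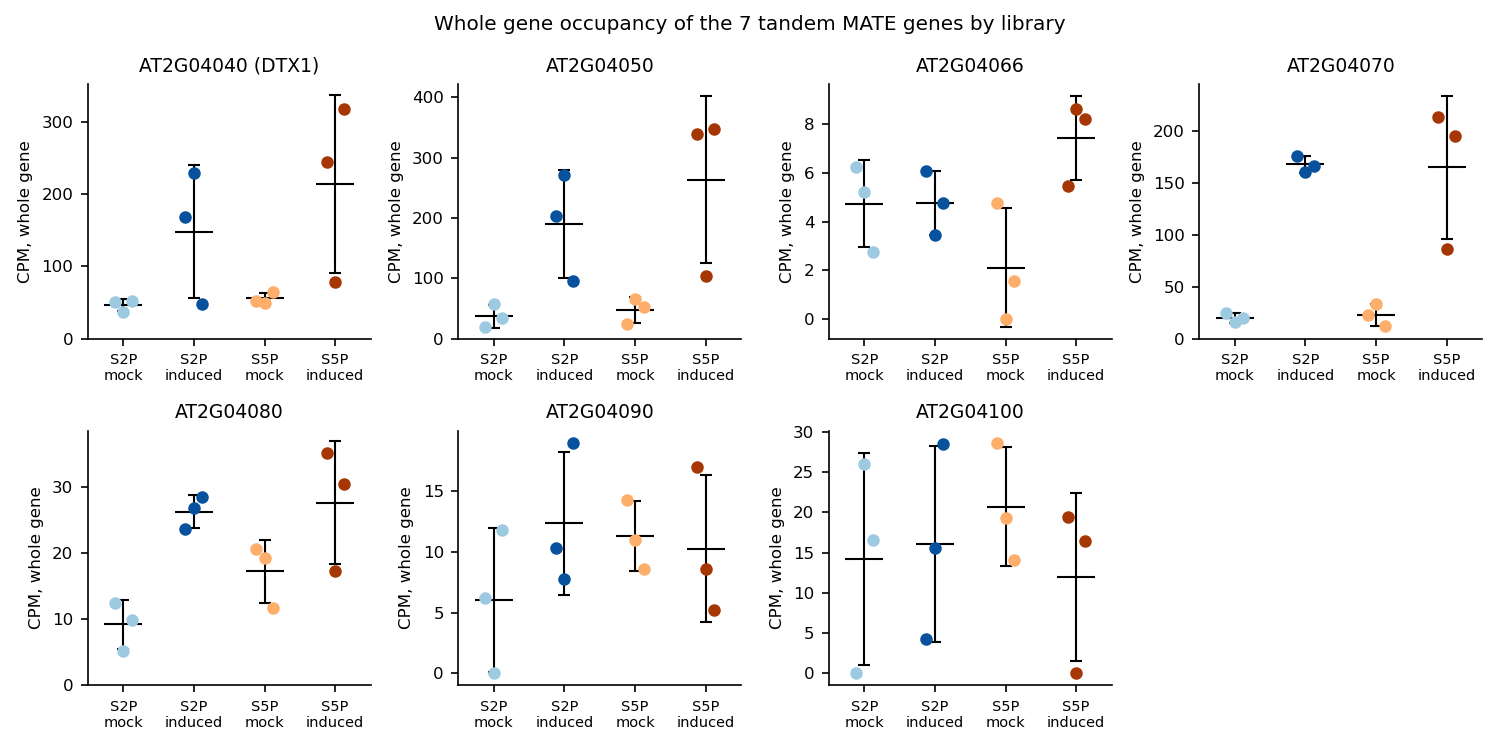
Whole gene occupancy of each of the 7 tandem MATE genes in CPM (vertical axes, scaled per gene) in the 3 libraries of each group; points are libraries, and bars are the mean with SD. The points of AT2G04070 separate fully by condition with both antibodies, from at most 33.1 CPM in mock to at least 86.3 CPM in induced libraries, while those of AT2G04100 overlap.

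For S2P, 5 of the 7 genes had enough reads to be tested, and AT2G04070 was the 1 that passed an adjusted p of 0.05 in edgeR's quasi-likelihood test over all genes. The background there was 3 of 18798 genes, or 0.016%. Since AT2G04070 was picked from this comparison, nothing is read from that count. It became 0 without any single S2P mock library or without S2P induced replicate 1. It became 2 (AT2G04050 and AT2G04070) both without S2P induced replicate 3, the shallow one, where 40 of 25062 genes were called, and without S2P induced replicate 2, where 525 of 6849 were. Without S2P induced replicate 3 the log2 fold change was 3.29 for AT2G04070, 2.89 for AT2G04050, 2.26 for DTX1 and 1.57 for AT2G04080. Of the 5 genes tested 3 had every S2P induced library above every mock library, against 3.41% of all genes tested. AT2G04070 and AT2G04050, on which the cluster was picked, are among these 3. The filter on low counts can also keep a gene through its induced libraries alone, as with AT2G04080. Nothing is read from this share either.

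The S5P libraries were not used in picking the cluster, although its members were chosen with earlier results of all libraries known. Same-numbered S2P and S5P mock libraries also deviated together, and the labels state no pairing. The S5P values are thus no independent test of the S2P ones. Of the 7 genes 6 were tested, and none passed an adjusted p of 0.05 in edgeR, as was the case for all 21954 genes tested (0%). The adjusted p was 0.148 for AT2G04070, 0.328 for AT2G04050, 0.403 for DTX1 and 0.599 for AT2G04080 in edgeR. Unadjusted, these 4 had p under 0.05, as had 1647 of all genes (7.5%). Their log2 fold changes were positive, and 12, 28, 94 and 1120 genes had larger ones in the same order. AT2G04090 and AT2G04100 had an adjusted p of 0.960 and 0.945 in edgeR. As a description, the median over the 6 genes was 1.59, against -0.0086 over all genes.

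The S5P result turned on the shallowest library. Without S5P induced replicate 2, the adjusted p in edgeR was 0.000239 for AT2G04070, 0.00111 for AT2G04050 and 0.00194 for DTX1, so that 3 listed genes were among the 302 called of 26076. Their log2 fold changes were then 3.42, 2.98 and 2.42. With all 6 libraries DESeq2 called the same 3 genes among 92, while limma voom called 0 genes. Over all settings tried, the adjusted p of AT2G04070 ran from 5.22e-06 to 0.989, and its log2 fold change from 2.79 to 3.45. In 3 of the 6 tested genes (DTX1, AT2G04050 and AT2G04070) every S5P induced library lay above every mock library, against 2.95% of all genes tested, and in none of the 7 did they all lie below. AT2G04066, which was not tested, also had no overlap. The filter on low counts can keep a gene through its induced libraries alone, so nothing is read from the share among tested genes.

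Read along the chromosome, the difference was not continuous. In the RefSeq order of genes, 12 loci run from AT2G04040 to AT2G04100. Of the 5 that are not listed, AT2G04060 and AT2G04063 were counted, and the other 3 were not used here. AT2G04060, which lies between AT2G04050 and AT2G04070, had 0, 41.7 and 12.6 CPM in S2P mock and 9.69, 16.4 and 28.5 CPM in S2P induced libraries, which overlapped. With the S5P antibody AT2G04060 had 23.9, 16.5 and 17.2 CPM in mock and 13.9, 0 and 16.4 CPM in induced libraries, so that every induced library lay below every mock library, the nearest being at 16.4 and 16.5 CPM. Its log2 fold change was 0.09 (SE 0.58) for S2P and -0.35 (SE 0.40) for S5P, between 2 genes whose own values were 2.55 and 3.27 for S2P and 2.67 and 3.15 for S5P. AT2G04063 held 15 and 4 reads for S2P and 12 and 15 for S5P, and was too thinly read to be tested. Outside DTX1 lies AT2G04039, with a log2 fold change of 0.62 (SE 0.39) for S2P and 0.35 (SE 0.41) for S5P. The strand setting of the counting is not stated, so reads of overlapping genes cannot be told apart.

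By locus number, 8 unlisted loci fall inside the range of the cluster and 10 more were taken as the 5 nearest on each side. Locus number is not position here. Of these 8, only AT2G04060 and AT2G04063 lie between AT2G04040 and AT2G04100 in the RefSeq order. Only 2 of these 18 were tested for S2P and 3 for S5P, none passed in edgeR, and none had an unadjusted p under 0.05. None had every induced library above every mock library with either antibody. In 4 of the 18 every induced library lay below every mock library for S2P, and likewise in 4 for S5P. Among all genes tested that order was seen in 9.31% and 13.7%. Most of the 18 had too few reads to be tested, so these shares are not a like background for them. The other loci did not pass the filter on low counts.

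**Figure D2:**
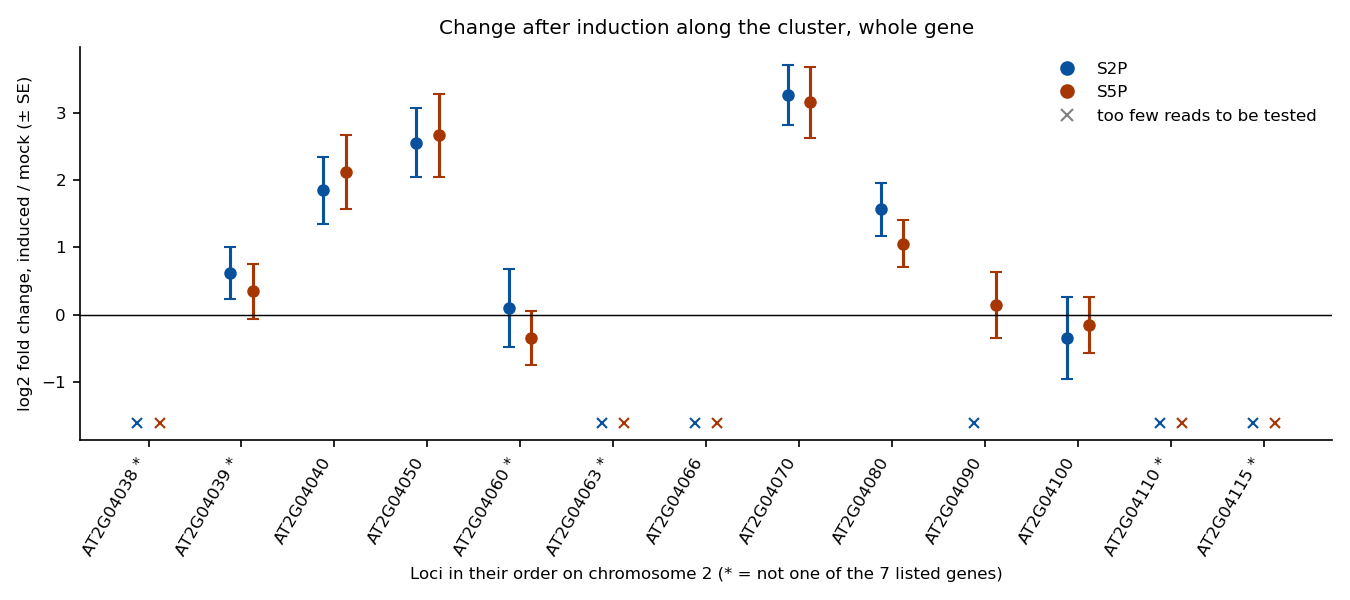
Log2 fold change of induced over mock for the whole gene (vertical axis, with SE as bars) of the 7 listed genes and the counted loci between and beside them, in their RefSeq order on chromosome 2. Values are high at AT2G04040 and AT2G04050, near 0 at AT2G04060, highest at AT2G04070 and fall off to near 0 at AT2G04100; crosses mark loci with too few reads to be tested.

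The 7 genes together held 137 ± 16.1 CPM in S2P mock, 566 ± 164 in S2P induced, 177 ± 18.7 in S5P mock and 699 ± 345 CPM in S5P induced libraries (SD, n = 3 each). The lowest induced sums, 390 CPM for S2P and 302 CPM for S5P, again came from the shallow libraries, yet lay above the highest mock sums of 147 and 198 CPM. Of the cluster's reads, DTX1, AT2G04050 and AT2G04070 took 75.4 ± 3.39% in mock and 88.1 ± 7.65% in induced libraries for S2P, and 70.7 ± 10.3% and 91.1 ± 2.44% for S5P (SD, n = 3 each). The share of AT2G04070 went from 15.0 ± 5.37% to 31.7 ± 10.2% for S2P and from 12.5 ± 4.60% to 24.7 ± 3.70% for S5P. That of AT2G04100 went from 9.70 ± 9.03% to 3.40 ± 3.47% for S2P, where the groups overlapped. For S5P it went from 11.8 ± 4.67% to 1.33 ± 1.18%, with 0 reads of AT2G04100 in S5P induced replicate 2. Shares of 1 library sum to 100, so a larger share of some copies means a smaller share of others.

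**Figure D3:**
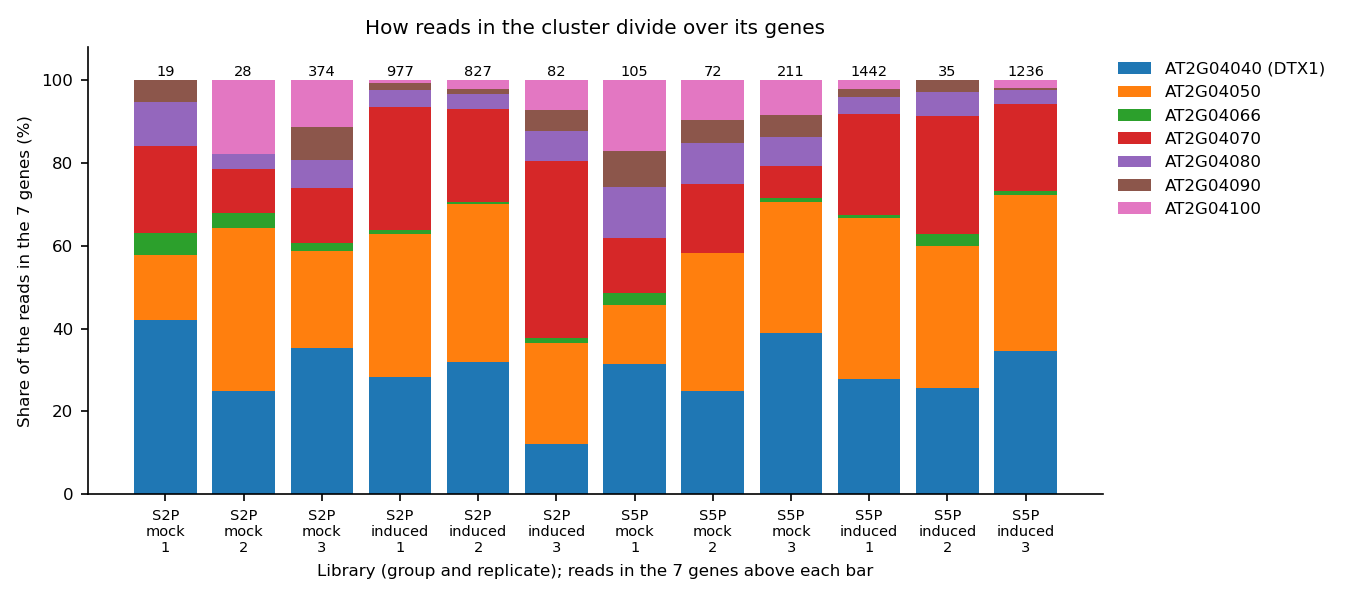
Share of the cluster's reads held by each of the 7 genes (vertical axis, percent) in each of the 12 libraries, with the number of reads in the cluster above each bar. The combined share of DTX1, AT2G04050 and AT2G04070 is 59.0% to 78.9% in the 6 mock libraries and 79.3% to 93.4% in the 6 induced ones; bars with 19 to 35 reads are imprecise.

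Copies were also compared within each library, as the log2 ratio of each to DTX1 (CPM with a pseudocount of 1), which removes the scaling between libraries. For S5P, the ratio of AT2G04100 to DTX1 was lower by 3.27 in induced than in mock libraries, and that of AT2G04090 by 1.95, with no overlap between the groups. S5P induced replicate 2 held 0 reads of AT2G04100 and 1 of AT2G04090, so its ratios depend on the pseudocount. Without 1 library the differences ran from -3.82 to -2.47 and from -2.51 to -1.19, with -2.47 for AT2G04100 when that library was left out and -1.19 for AT2G04090 without S5P induced replicate 3. The difference was -1.08 for AT2G04080, 0.05 for AT2G04066, 0.66 for AT2G04050 and 1.10 for AT2G04070, with overlap. In an exact two-sided permutation test of 3 against 3 libraries, where the smallest possible p is 0.1, p was 0.1 for AT2G04100 and AT2G04090, 1 for AT2G04066 and 0.2 for the other 3. Adjusted over the 6 ratios, all but AT2G04066 had 0.24 in this permutation test. With a smallest p of 0.1 none could pass 0.05, so nothing is read from that. For S2P, as a description, the differences were 1.62 for AT2G04070 (no overlap), 0.94 for AT2G04050, 0.09 for AT2G04080, 0.07 for AT2G04090, -0.60 for AT2G04100 and -1.37 for AT2G04066.

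The higher mean occupancy of DTX1, AT2G04050 and AT2G04070 was seen in the gene body and, with fewer reads, in the window at the transcription start site (TSS). In the gene body AT2G04070 had 30.4, 19.5 and 17.5 CPM in S2P mock and 191, 175 and 188 CPM in S2P induced libraries. For S5P it had 23.8, 27.6 and 14.3 CPM in mock and 227, 99.7 and 201 CPM in induced libraries. Every induced library lay above every mock library with both antibodies for DTX1, AT2G04050, AT2G04070 and AT2G04080. These were 4 of the 7 listed genes with either antibody. They made up all 4 genes tested for S2P and 4 of the 5 tested for S5P, against 3.46% and 3.22% of all genes tested. The cluster was picked from the S2P reads, and the filter on low counts can keep a gene through its induced libraries alone. Nothing is therefore read from these shares. Some gaps were narrow and rest on few reads. DTX1 was at 53.1 CPM in the highest S2P mock library and 56.5 CPM, from 9 reads, in S2P induced replicate 3. AT2G04080 was at 23.8 CPM in the highest S5P mock library and 24.9 CPM, from 2 reads, in S5P induced replicate 2.

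Gene body log2 fold changes were close to those of the whole gene, which counts the same reads. For S2P they were 3.30 for AT2G04070, 2.68 for AT2G04050, 1.84 for DTX1 and 1.73 for AT2G04080. Without S2P induced replicate 3 they were 3.35, 3.01, 2.23 and 1.81. Of the 4 genes tested AT2G04070 passed in edgeR, the only gene called of 15968 (0.00626%), but it was picked from these reads and nothing is read from that. The call was lost with RLE factors, with the replicate block and without any S2P mock library or S2P induced replicate 1. For S5P they were 3.24 (SE 0.46), 2.62 (SE 0.55), 2.03 (SE 0.51) and 1.25 (SE 0.41), with an adjusted p in edgeR of 0.0654, 0.214, 0.328 and 0.512. None of 5 tested genes passed, as none of all 18722 did (0%), although the unadjusted p of 1486 was under 0.05. With DESeq2 52 genes were called there, DTX1, AT2G04050 and AT2G04070 among them, and limma voom 0. Without S5P induced replicate 2, edgeR called these 3 among 148, with AT2G04070 at an adjusted p of 0.00126. AT2G04070 ranked second by p in the S5P gene body, and 4 genes had a larger log2 fold change.

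In the TSS window AT2G04070 had 0, 21.9 and 31.5 CPM in S2P mock and 132, 127 and 135 CPM in S2P induced libraries. For S5P it had 19.5, 45.2 and 6.89 CPM in mock and 194, 49.0 and 178 CPM in induced libraries, without overlap. The 49.0 CPM came from 2 reads. AT2G04050 had 26.0, 67.8 and 65.5 CPM in S5P mock and 384, 98.1 and 446 CPM in S5P induced libraries, also without overlap. DTX1 and AT2G04080 overlapped in this window with both antibodies. Induced above mock without overlap was thus seen in 1 of the 7 listed genes for S2P and 2 of the 7 for S5P. These were 1 of the 2 tested for S2P and 2 of the 3 tested for S5P, against 5.16% and 5.46% of all genes tested. The filter on low counts can keep a gene through its induced libraries alone, so nothing is read from these shares.

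Few genes could be tested in the TSS window. For S2P these were AT2G04050 and AT2G04070, with log2 fold changes of 2.01 (SE 0.87) and 2.17 (SE 0.84), or 2.59 and 2.47 without S2P induced replicate 3, and none of 3215 genes passed (0%; 109 unadjusted). For S5P they were DTX1, AT2G04050 and AT2G04070, with 1.70 (SE 0.90), 2.30 (SE 0.95) and 2.61 (SE 0.95); edgeR gave all 3 an adjusted p of 0.999. Without S5P induced replicate 2 they were 2.17, 2.8045 and 3.13, and 11 genes were called, none of them listed. None of 5753 genes passed (0%; 250 unadjusted), and DESeq2 and limma voom called 0 genes in this window with either antibody.

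**Figure D4:**
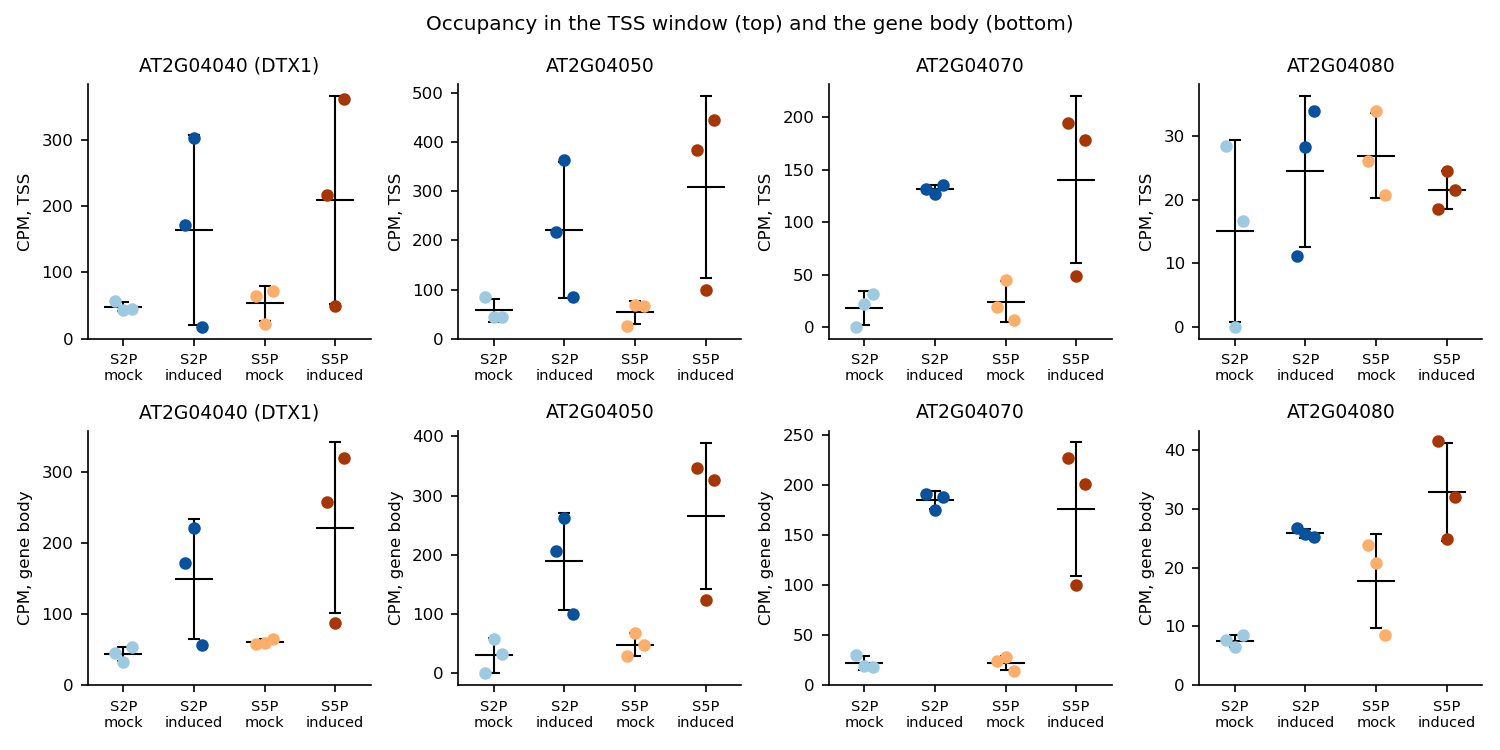
Occupancy of 4 listed genes in the TSS window (top row) and the gene body (bottom row), in CPM of that window (vertical axes), by group; points are libraries, and bars are the mean with SD. In the gene body all induced points lie above all mock points of their antibody for these 4 genes, while in the TSS window they do so for AT2G04070 with both antibodies and for AT2G04050 with S5P.

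The balance between the windows was compared for the summed reads of the 7 genes. In each group the counts of both windows add to more than that of the whole gene, so the windows are not a split of it. With S2P, the TSS window took 26.7 ± 4.25% of the reads of both windows in mock plants and 24.8 ± 2.00% in induced plants (SD, n = 3). With S5P it took 25.2 ± 0.574% and 24.4 ± 1.15% (SD, n = 3). The S5P difference in the log2 ratio of TSS to gene body reads was -0.055. An exact two-sided permutation test gave p = 0.4, or 0.6 adjusted over both antibodies. Its smallest possible p is 0.1 with 3 against 3 libraries, so it could not pass 0.05. For S2P the difference was -0.20. Over all nuclear genes the TSS share went from 21.5 ± 1.29% to 25.5 ± 1.93% for S2P and from 22.8 ± 1.02% to 27.2 ± 5.72% for S5P (SD, n = 3), a log2 difference of 0.32 with both antibodies. The S5P value rests on the shallowest library, at 33.7% against 24.9% and 23.0% in the other induced ones. Without it the induced mean was 23.9% and the log2 difference 0.092, and without S2P induced replicate 3 the S2P difference was 0.26. Whether the cluster differs from all genes in this was not tested.

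Between the antibodies, the leading genes of the cluster that were tested differed by their error or less in either condition. In mock plants 3 listed genes were tested, and S5P over S2P had a log2 fold change of 0.24 (SE 0.27) for DTX1, 0.37 (SE 0.37) for AT2G04050 and 0.0023 (SE 0.48) for AT2G04070. None passed in edgeR, as none of 16388 genes did (0%; 376 unadjusted, and 0 by DESeq2 or limma voom). Same-numbered mock libraries of the antibodies deviated together, which the fit behind these values and errors does not take into account. With the replicate number as a block 238 genes were called, none of them listed, with AT2G04070 at -0.24. In induced plants 6 listed genes were tested, with 0.48 (SE 0.69) for DTX1, 0.42 (SE 0.67) for AT2G04050, -0.09 (SE 0.57) for AT2G04070 and 0.17 (SE 0.34) for AT2G04080. Without S2P induced replicate 3 the values of DTX1 and AT2G04050 were 0.09 and 0.13, and without S5P induced replicate 2 they were 0.77 and 0.71. None of 23364 genes passed there (0%; 162 unadjusted, and 0 by DESeq2 or limma voom).

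The difference of the induction response between the antibodies, S5P minus S2P, was 0.27 (SE 0.75) for DTX1, 0.10 (SE 0.78) for AT2G04050, -0.11 (SE 0.65) for AT2G04070 and -0.52 (SE 0.50) for AT2G04080 on the log2 scale. Each was smaller than or near its error. None of 23793 genes passed in edgeR (0%; 151 unadjusted, and 0 by DESeq2 or limma voom).

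Other members of the MATE family were set beside the cluster, from a list of 49 loci elsewhere in the genome, all of which were counted. The list was drawn up from general knowledge of the family, and membership was not checked against an annotation. For S2P 44 were tested, 20 of them had a positive log2 fold change, and the median was -0.05, against 0.04 for all genes. For S5P 46 were tested, 20 were positive, and the median was -0.12, against -0.0086 for all genes. None passed in edgeR with either antibody. Unadjusted, 2 had p under 0.05 for S2P, both lower, or 4.55% of those tested against 7.65% of all genes. For S5P 2 did, 1 higher and 1 lower, or 4.35% against 7.5%.

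Among these loci the 4 with the smallest p for S2P were AT1G11670 at -1.27 (SE 0.43), AT1G23300 at -0.84 (SE 0.36), AT5G52050 at -0.94 (SE 0.45) and AT1G61890 at -1.04 (SE 0.50). For S5P they were AT1G33110 at 1.23 (SE 0.42), AT1G11670 at -1.21 (SE 0.46), AT3G21690 at 2.14 (SE 1.01) and EDS5 (AT4G39030), which exports a salicylic acid precursor from the chloroplast, at 0.85 (SE 0.40). AT3G21690 had the largest log2 fold change of the family list with both antibodies, 1.70 (SE 0.85) for S2P. In the cluster AT2G04070, AT2G04050 and DTX1 lay above that value for S2P, and AT2G04070 and AT2G04050 for S5P, where DTX1 was at 2.12. The cluster was picked on AT2G04070 and AT2G04050 in the S2P comparison, so nothing is read from its place above the family there. For S5P the members and the family list were chosen with earlier results known, so this is a description.

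**Figure D5:**
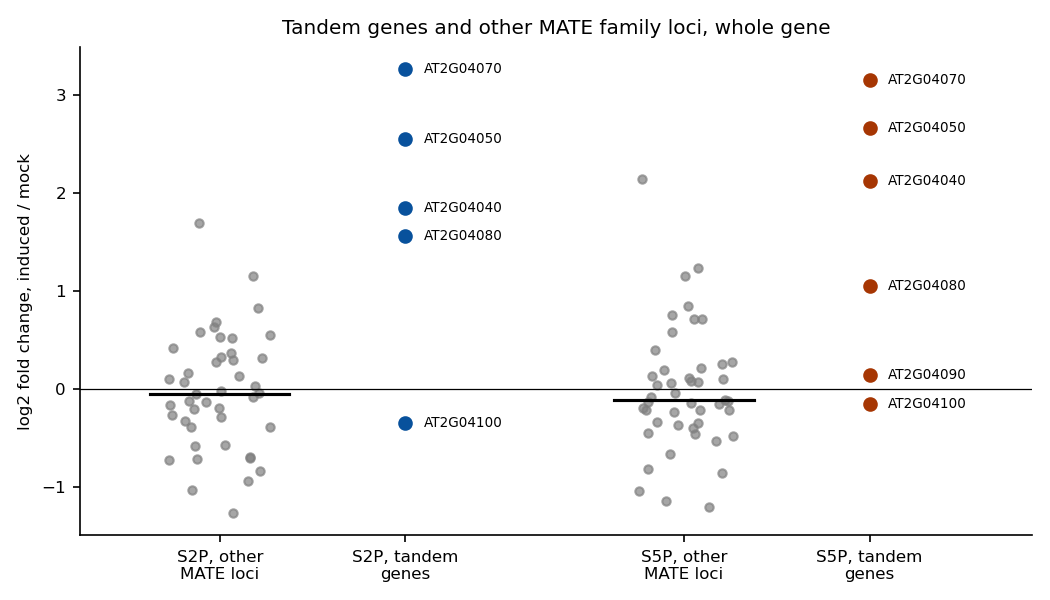
Log2 fold change of induced over mock for the whole gene (vertical axis) of the other MATE family loci tested (grey, 44 for S2P and 46 for S5P, with a bar at the median) and of the tandem genes tested (coloured and named). The grey points range from -1.27 to 1.70 for S2P and from -1.21 to 2.14 for S5P, and AT2G04070 lies at 3.27 and 3.15. The cluster was picked on the S2P values of AT2G04070 and AT2G04050, so nothing is read from their height there.

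The pattern of AT2G04070 over the 12 libraries was compared with that of 23787 genes by Pearson's r of log2(CPM + 1), as a description. The highest values outside the cluster were 0.96 for SRO3 (AT1G70440), from the protein family of RCD1, 0.96 for ABCB4 (AT2G47000), an auxin transporter, and 0.95 for NAC13 (AT1G32870), a transcription factor. EMB1030 (AT5G22800) had 0.95 and the lectin receptor kinase gene LECRKA4.2 (AT5G01550) 0.94. ABCB4, for example, had 155 ± 42.8 CPM in S2P mock, 491 ± 80.5 in S2P induced, 153 ± 34.2 in S5P mock and 552 ± 34.6 CPM in S5P induced libraries (SD, n = 3 each). Within the cluster r was 0.86 for AT2G04050, 0.84 for AT2G04080, 0.78 for DTX1, 0.42 for AT2G04066, 0.36 for AT2G04090 and -0.02 for AT2G04100. These points share libraries and their depths, and they fall into a mock and an induced set, so r mainly reflects the difference between those sets.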

How the data were processed

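The authors deposited raw read counts per gene, whole numbers with no normalization, for the whole gene, the TSS window and the gene body of each of 12 libraries (36 files). Per the submitters' processing notes the reads were handled with Trimmomatic and HTSeq on TAIR10; the versions, the aligner, the bounds of the windows and the strand setting were not given in the sources used. The 5 closing lines of each file, which name no gene, and 279 organelle genes entered neither library sizes nor tests. They show 74.7% to 96.7% of all reads not aligned and, of the aligned reads, 18.5% to 56.1% of low mapping quality, 13.0% to 29.4% in no gene and 0.748% to 1.83% ambiguous between genes. The counter's line for alignments to several places was 0 throughout. Reads that near-identical copies share thus cannot be seen, and the values of tandem copies are uncertain to that extent.

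Groups and replicate numbers came from the labels. They do not say whether replicates were grown separately. The p-values thus reflect the spread among these libraries, which may be technical. The members, the family list and the named genes were chosen with earlier results of these data known. All 7 genes are named, with TFIIS, the neighbouring loci, the 4 other MATE loci of smallest p per antibody and the 5 genes most like AT2G04070.

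The main test was edgeR 4.0.16 (quasi-likelihood, TMM, filterByExpr with a minimum count of 10) in R 4.3.3, on the groups compared, with Benjamini-Hochberg adjustment over all nuclear genes tested and a threshold of 0.05. Each SE was taken from the F statistic of that test. The code was tested on simulated data. Alternatives were RLE factors, library totals, no filter, DESeq2 1.42.0, limma voom (limma 3.58.1), a replicate block and leaving out each library. Single values were compared by exact two-sided permutation tests (scipy 1.17.1). Same-numbered S2P and S5P mock libraries deviated together, with r of 0.13, 0.20 and 0.30 over 21519 genes. The labels state no pairing, and the main tests between the antibodies did not take this correlation into account. Only the replicate block, an alternative, did. Same-numbered S2P and S5P induced libraries had r of -0.19, -0.49 and -0.34 over 21149 genes. Differently numbered S2P and S5P libraries had r of -0.18 to -0.037 in mock and -0.27 to 0.59 in induced plants. The value of 0.59 was between S2P induced replicate 2 and S5P induced replicate 3. Between same-numbered mock and induced libraries r was 0.055, -0.12 and -0.19 for S2P, and -0.0015, 0.17 and 0.30 for S5P. The main tests did not pair these either. Intervals are exact Poisson intervals at 95% and cover counting error only, since reads were not tagged by molecule. Names and gene order came from a RefSeq table of TAIR10.1, of which no coordinates were used.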

Additional observations from a re-analysis of the deposited data

How the results depend on the processing

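In the S2P induction comparison the count of listed genes past the threshold, 1 over the whole gene and 1 in the gene body, became 0 with RLE factors, 2 without the filter on low counts, 2 with DESeq2 and 0 with the replicate block, in both windows. Over all genes 72 of 32344 were called without the filter and 42 of 18798 with DESeq2 for the whole gene, and 68 of 29212 and 24 of 15968 in the gene body. Leaving out 1 library gave 0 to 2 in both. In the S5P comparison the count of 0 became 1 without the filter and 3 with DESeq2 in both windows, and 0 to 3 when 1 library was left out, 3 only without S5P induced replicate 2. Without the filter 28 of 32344 genes were called for the whole gene and 49 of 29206 in the gene body, and with DESeq2 92 of 21954 and 52 of 18722. The TSS share of all genes without 1 shallow library was added after seeing the data. The cause was not tested. In the TSS window and between the antibodies the count was 0 under every setting. Of 432 single-gene values under other settings, 376 kept their direction and side of the threshold, 12 lost the threshold, 21 gained it and 23 changed sign, none of these where induced was compared with mock for DTX1, AT2G04050, AT2G04070 or AT2G04080.

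With the replicate block the log2 fold change of AT2G04100 for S2P was 0.43 and that of AT2G04090 for S5P was -0.077. Without 1 library, AT2G04100 for S5P ran from -0.46 to 0.20 over the whole gene and from -0.65 to 0.30 in the gene body. The S5P over S2P value of AT2G04070 in mock plants was -0.0052 with RLE factors, -0.0069 without the filter, -0.19 with limma voom, -0.24 with the replicate block and -0.26 to 0.045 without 1 library. In induced plants it was 0.0080 with library totals and -0.26 to 0.13 without 1 library. The difference of the induction response ran from -0.12 to 0.56 for DTX1, from -0.24 to 0.39 for AT2G04050 and from -0.43 to 0.16 for AT2G04070 without 1 library. The ratio of AT2G04066 to DTX1 differed by -0.80 with a pseudocount of 5. By the labels mock and induced libraries share only a replicate number, so the block there stands for no known pairing. Library totals moved the median of all genes for the whole gene from 0.04 to -0.13 (S2P) and from -0.0086 to -0.13 (S5P). Log2 fold changes thus depend on how the libraries are scaled.

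Depth limits the cluster most in S2P mock replicates 1 and 2, which held 19 and 28 reads in all 7 genes, and in S5P induced replicate 2, which held 35.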
